A study of Homo sapiens with 21 samples.

Results

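The replication-dependent histone genes were examined in 21 ribosomal RNA-depleted RNA-seq libraries from 2 human cancer cell lines. Members were the protein-coding genes whose symbol starts with HIST1H, HIST2H, HIST3H or HIST4H or, in the newer names, with H1- followed by a number from 1 to 6, H2AC, H2BC, H3C or H4C. The rule used names and no measured value. It took 67 genes of the annotation, of which 32 had an identifier in at least 1 of the 4 tables, among 20970 genes in all. The 32 were 6 of 6 linker histone H1 genes, 7 of 17 H2A genes, 9 of 17 H2B genes, 5 of 13 H3 genes and 5 of 14 H4 genes. The other 35 members were not analysed here, so every count below is over the measured members only.

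The study asked how METTL4, an enzyme studied for adenine methylation of DNA, and the RNA RP11-390F4.3 take part in the response to low oxygen. FADU is a head and neck cancer line and BFTC909 (also written BFTC-909) is a urothelial cancer line. In each line, cells with a scramble siRNA (Scr-si) were kept for 18 h in 18% O2 (normoxia) or in 1% O2 (hypoxia), and cells with a METTL4 siRNA (METTL4-si) were kept in 1% O2, with 2 libraries per group. In normoxia, FADU cells with a control, a METTL4 or an RP11-390F4.3 overexpression (OE) construct gave 2 libraries each. In hypoxia, FADU cells with a METTL4-DPPW mutation made by CRISPR gave 1 library from each of 2 clones, beside 1 library of CRISPR control cells. No METTL4-si library was made in normoxia, and nothing says that the 2 libraries of a group came from separate cultures, so p-values measure only the spread between these libraries.

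Histones package DNA into nucleosomes, in which H2A, H2B, H3 and H4 form the core and H1 binds the linker DNA. The replication-dependent genes lie in clusters, are transcribed together when DNA is copied in S phase, and supply the histones for the new chromatin. Their mRNAs are the best known animal mRNAs without a poly(A) tail: they end in a short stem-loop that the stem-loop binding protein SLBP holds, that U7 small nuclear RNA helps to cut, and that lets the cell destroy the message quickly when replication stops. Libraries selected on poly(A) miss most of them, whereas ribosomal RNA depletion keeps them.

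A stem-loop of 16 bases was found in the annotated sequence behind the stop codon of all 32 measured genes, 25 to 70 bases after it (median 39). Genes outside the members were not searched for it. The 5 sequences are shown because all measured members share this feature (GRCh37, read 5′ to 3′, with the 4 bases of the loop in capitals).
Loop of 18 genes of types H1, H2A, H2B and H3: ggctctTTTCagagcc
Loop of 7 genes: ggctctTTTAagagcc
Loop of all 5 H4 genes: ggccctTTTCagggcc
Loop of H2AC20: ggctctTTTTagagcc
Loop of H2AC11: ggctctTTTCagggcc
Thus the measured H4 genes shared a stem of their own, and the other genes differed from each other mainly in the last base of the loop. All 32 have 1 exon in the canonical transcript, and 11 also have an annotated transcript with more than 1 exon.

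Promoters were taken from RefSeq (GRCh38.p14), which held 30 of the 32 genes. For each type, the gene with an entry and the highest mean value in the FADU normoxia and hypoxia table is shown by the 150 bases before its start, with every match on either strand to the TATA box TATAAA, the CCAAT box CCAAT, the octamer ATTTGCAT or the H1 box AAACACA in capitals; where matches touch, they run together.
H1-5 (chr6:27867589-27867738, minus strand): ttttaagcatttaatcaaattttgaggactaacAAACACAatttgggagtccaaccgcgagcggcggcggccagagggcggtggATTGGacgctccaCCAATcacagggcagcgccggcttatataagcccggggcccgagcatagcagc
H2AC11 (chr6:27132893-27133042, plus strand): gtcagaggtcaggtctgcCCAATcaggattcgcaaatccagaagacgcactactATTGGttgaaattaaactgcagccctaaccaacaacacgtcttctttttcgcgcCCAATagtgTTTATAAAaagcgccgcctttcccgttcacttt
H2BC12 (chr6:27146859-27147008, minus strand): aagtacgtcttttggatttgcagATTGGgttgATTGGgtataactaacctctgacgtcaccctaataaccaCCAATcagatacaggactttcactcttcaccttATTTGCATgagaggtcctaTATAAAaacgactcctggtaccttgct
H3C4 (chr6:26199294-26199443, minus strand): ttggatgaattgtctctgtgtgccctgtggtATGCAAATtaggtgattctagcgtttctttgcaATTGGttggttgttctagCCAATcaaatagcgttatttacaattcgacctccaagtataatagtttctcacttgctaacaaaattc
H4C8 (chr6:26285535-26285684, minus strand): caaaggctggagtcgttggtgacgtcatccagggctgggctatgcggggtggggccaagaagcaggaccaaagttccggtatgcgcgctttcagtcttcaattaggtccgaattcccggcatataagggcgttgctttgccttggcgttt
Over 250 bases before the start, TATAAA stood in 21 of the 30 promoters (70%) and in 11.1% of all 27305 promoters. CCAAT stood in 26 of 30 (86.7%), against 33.0% of all promoters, and those 26 were all of the H1, H2A, H2B and H3 promoters and 0 of 4 H4 promoters. The octamer, a site for OCT1 in histone promoters, stood in 10 of 30 (33.3%; 5 of 9 H2B, 4 of 7 H2A and 1 of 4 H3), against 1.66% of all. AAACACA stood in 6 of 6 H1 promoters and in 0 of 24 others, against 4.95% of all promoters. A match describes the letters of the sequence and was not tested as a binding site.

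The libraries held 17781791 to 25410656 reads on genes, so 1 read was worth 0.030 to 0.050 of a deposited value (CPM normalized by TMM, edgeR's trimmed mean of M-values). The known hypoxia gene CA9, a carbonic anhydrase, was at 2.33 and 2.55 in FADU normoxia and 31.0 and 37.8 in FADU hypoxia, and at 0.358 and 1.17 and 54.0 and 56.2 in BFTC909. Of 8 genes listed to check the labels, METTL4 among them, 6 rose in FADU hypoxia and VEGFA fell. In BFTC909 hypoxia 7 rose, VEGFA among them. METTL4 RNA was at 26.6 and 25.3 in the FADU Scr-si hypoxia libraries and 24.2 and 27.1 in the libraries labelled METTL4-si, so its RNA was not lower there. In BFTC909 it was at 19.0 and 15.6 against 14.4 and 12.2 (log2 fold change -0.36, limma adjusted p = 0.072). METTL4 OE raised METTL4 from 35.4 and 32.7 to 158 and 139. Some libraries held raised levels of markers of other cells. A list of 7 genes of hormone-responsive breast epithelium summed to 543 in FADU METTL4-si replicate 1 and 109 in FADU normoxia replicate 1, against 10.7 to 13.5 in the other 4 libraries of that table, where its defining gene TFF1 was at 0. BFTC909 METTL4-si replicate 2 had 1122 for 4 epithelial genes, against 21.5 to 84.7 in the other BFTC909 libraries, in which epithelial keratins were low for a urothelial line. In RP11-390F4.3 OE replicate 2, the 5 genes of the breast list in that table summed to 40.2, against 8.56 to 15.4 in the other OE libraries, with GATA3 at 16.5 against 2.98 in replicate 1. Counts of called histone genes or their median log2 fold changes are given below with and without each of these 4 libraries.

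Before any comparison, the histone genes were abundant in both lines. Per kilobase of coding sequence and averaged over a table, the highest in FADU were H4C3 at 398, H1-5 at 377 and H1-2 at 365, and in BFTC909 H1-2 at 523, H4C3 at 505 and H2BC5 at 422. H4C3 (GRCh37 chr6:26104161-26104565, plus strand) and H1-2 (chr6:26055968-26056698, minus strand) lie in the large HIST1 cluster, as do 21 of the 32. Some of the low genes have near-identical copies: of their 150-base stretches, 100% in H3C15, 98.9% in H3C14 and 88.8% in H4C11 also occur in another member, so reads can be lost or shared there, and their values of 0.267 to 10.9 are uncertain. H4C3 also lies inside the annotated span of H2BC4 on the other strand, and the strand setting of the counting is not given in the sources used here. H1-6, the testis H1, stayed under 1 in most libraries. It overlaps the same H2BC4 span on the same strand, so strand cannot separate their reads and its values are uncertain. H2AC25 and H2BC26 of the HIST3 cluster were at 25.6 and 20.9 and at 22.7 and 20.7 in FADU normoxia but too low to test in BFTC909, a difference between separately normalized tables that was not tested.

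**Figure D1:**
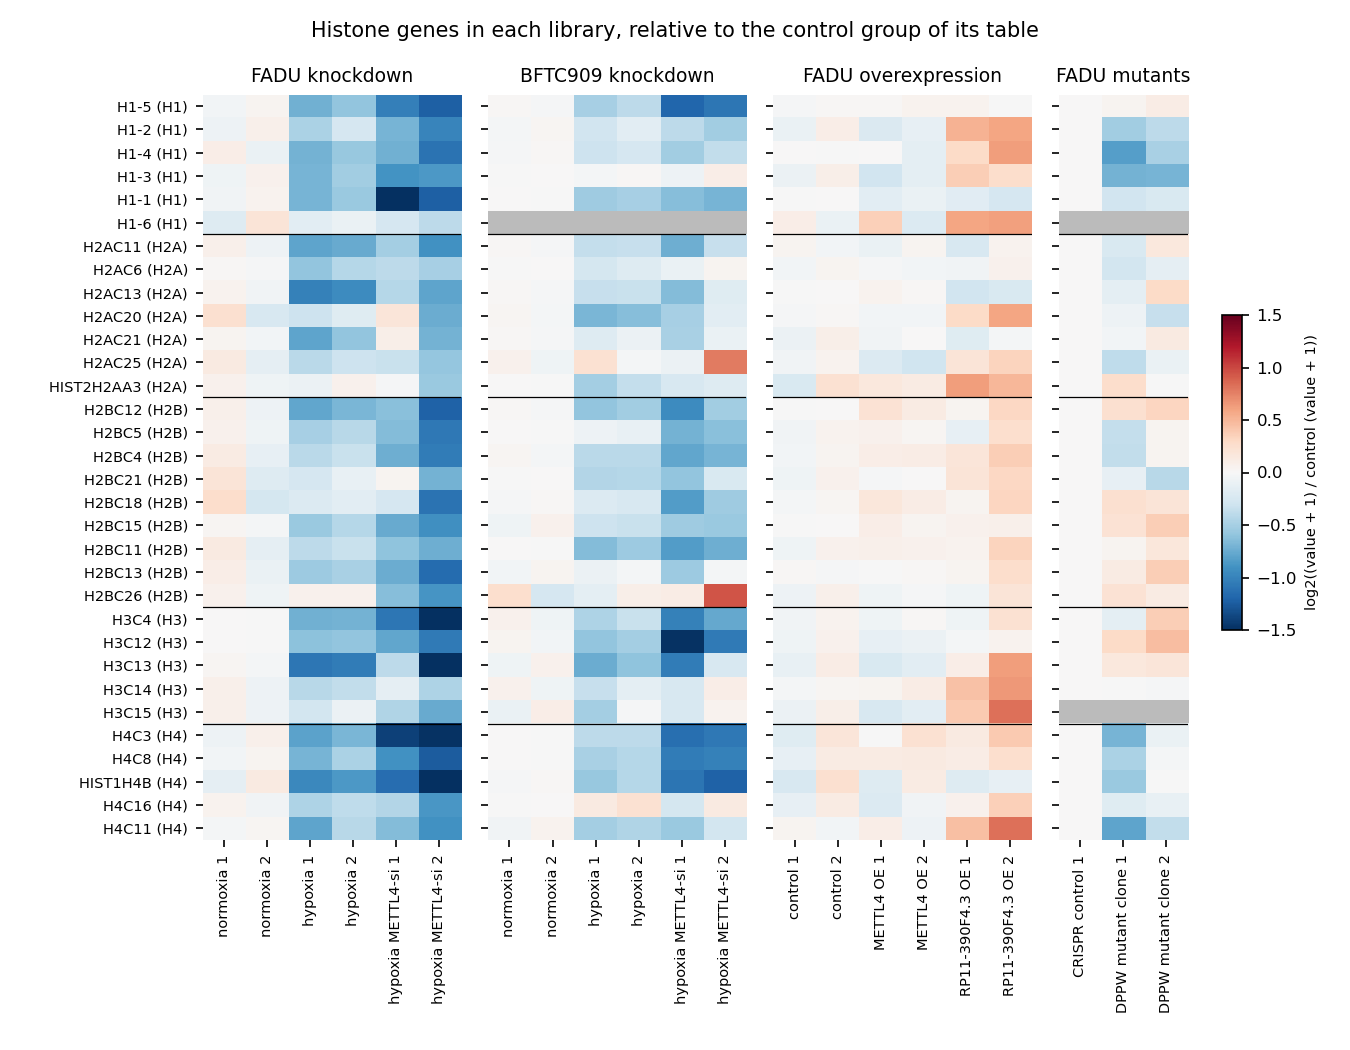
Each row is a measured histone gene, grouped by type, and each column a library. Colour gives log2(value + 1) minus the mean of the reference group of its table (normoxia, control OE or CRISPR control), and grey marks genes not in a table. In the FADU and BFTC909 panels most rows are below the normoxia level in hypoxia and lower again in many METTL4-si libraries, whereas the METTL4 OE columns stay near 0.

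Hypoxia lowered the replication-dependent histone mRNAs in FADU. Of 31 genes tested, 21 fell by at least 1.3-fold with an unadjusted p under 0.05 and 0 rose, where 12.5% of all 16324 genes tested fell and 12.4% rose. The median log2 fold change was -0.51 over the histone genes and -0.026 over all genes. With the adjusted p, 16 fell, against 9.65% of all genes. For 26 of the 31 the hypoxia and normoxia libraries did not overlap, and 30 of 31 had a lower mean in hypoxia. Shares over all genes are not given here for these counts, so both describe the measured members alone. At an unadjusted p under 0.05 alone, limma found 0 higher and 25 lower (18.1% and 20.9% of all genes), and edgeR called the same 21 genes (12.1% of all genes fell) and no rise. Without normoxia replicate 1, 1 of the libraries with breast epithelial transcripts, 16 fell and 0 rose, with a median of -0.49 and with 2 of 9 H2B genes called. Without METTL4-si replicate 1 as well, 20 fell at the same median. In RNA from whole cultures, fewer cells in S phase and less histone mRNA per cell cannot be told apart.

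All types took part. H1 genes fell in 4 of 5 (median -0.63), H2A genes in 4 of 7 (-0.51), H2B genes in 4 of 9 (-0.37), H3 genes in 4 of 5 (-0.60) and H4 genes in 5 of 5 (-0.60). H1-5, the linker histone with the highest value in FADU, went from 355 and 377 in normoxia to 222 and 243 in hypoxia (log2 fold change -0.65, SE 0.089, limma adjusted p = 0.0040). H1-4 went from 269 and 233 to 153 and 168, and H1-3 from 232 and 255 to 149.8 and 168 (log2 fold changes -0.64 and -0.61). In all of these every hypoxia library was below every normoxia library. H1-2 was the linker gene that was not called: its values were 284 and 315 and 214 and 251 (log2 fold change -0.37, just under 1.3-fold).

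Among the core histones, H4C3 went from 179 and 198 to 108 and 116 (log2 fold change -0.74, SE 0.080, limma adjusted p = 0.0018), or from 189 ± 14 (SD, n = 2) to 112 ± 6.1 (SD, n = 2). HIST1H4B (H4C2 in the newer names), another H4 gene, went from 119 and 144 to 66.4 and 71.3 (log2 fold change -0.91). The H2A gene H2AC11 went from 164 and 148 to 89.3 and 92.0, and H2AC13 from 96.7 and 89.5 to 45.7 and 48.0 (log2 fold changes -0.77 and -0.98). All 4 genes encode proteins of the nucleosome core, and in each the hypoxia libraries lay below the normoxia libraries. H2BC12 went from 169 and 152 to 93.1 and 99.1 (log2 fold change -0.73), and the H3 gene H3C4 from 80.5 and 80.5 to 48.6 and 48.8 (-0.71). H3C13 had the lowest log2 fold change, -1.06, with values of 32.8 and 31.4 in normoxia and 14.6 and 15.0 in hypoxia, but its SE was 0.36 and its limma adjusted p was 0.074, because the METTL4-si libraries that share the estimate of the spread stood at 24.2 and 9.39.

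By position, 17 of 20 tested HIST1 genes fell (median -0.61) and 3 of 8 HIST2 genes (median -0.21). The HIST2 genes HIST2H2AA3, H3C14 and H3C15 averaged only 1.26, 1.08 and 0.811 over the FADU normoxia, hypoxia and METTL4-si libraries. At such values the fold changes are understated, which lowers the HIST2 count and median by an unknown part. The 2 HIST3 genes were not called: H2AC25 was at 25.6 and 20.9 and 17.2 and 18.5, and H2BC26 at 22.7 and 20.7 and 22.6 and 22.8. The difference between clusters was not tested.

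BFTC909 showed the same direction. Of 29 genes tested, 15 fell and 0 rose, where 19.2% of all 14869 genes fell and 19.5% rose; with the adjusted p the count was also 15, against 18.3%. The median log2 fold change was -0.39 over the histone genes and -0.022 over all genes, and 28 of 29 had a lower mean in hypoxia. For that last count the share over all genes is not given here. At an unadjusted p under 0.05 alone, limma found 0 higher and 21 lower (25% and 28.6% of all genes), and edgeR called 15 falls (19.5% of all genes) and 0 rises. H1 genes fell in 2 of 5 (median -0.28), H2A genes in 2 of 6 (-0.35), H2B genes in 4 of 8 (-0.36), H3 genes in 3 of 5 (-0.40) and H4 genes in 4 of 5 (-0.46). With each library scaled to the same median, 9 fell and 0 rose.

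H1-5 went from 241 and 234 to 168 and 180.1 (log2 fold change -0.45, SE 0.069, limma adjusted p = 0.0019), and H1-1 from 23.9 and 23.8 to 16.1 and 16.5 (log2 fold change -0.52). The 2 most abundant linker genes had smaller changes: H1-2 was at 380.3 and 396 and 317 and 347, and H1-4 at 313 and 319 and 254 and 266 (log2 fold changes -0.22 and -0.28, neither called). H1-3, which fell in FADU, stood at 55.6 and 56.2 in normoxia and 54.7 and 56.4 in hypoxia. The lines therefore differed in which H1 genes were called, though the difference between lines was not tested. Core genes with the lowest log2 fold changes were H3C13 (25.6 and 28.3 to 15.7 and 17.3, log2 fold change -0.67), H2AC20 (103 and 99.7 to 63.0 and 64.6, -0.66) and H2BC11 (146 and 144 to 91.7 and 98.8, -0.60). H4C3 went from 211 and 210.3 to 160.3 and 160.3 (log2 fold change -0.39), H2AC11 from 188 and 184 to 145 and 146 (-0.35, not called) and H3C4 from 143 and 132 to 99.2 and 109 (-0.40).

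Across the lines, 10 of the 29 genes tested in both fell in both, which is 47.6% of the 21 that fell in FADU and 66.7% of the 15 that fell in BFTC909. Of all 13595 genes tested in both, 4.94% fell in both, which is 39.5% of those that fell in FADU and 25.0% of those in BFTC909. With 21 and 15 of the 29 falling, an overlap of 10 is no more than these counts alone give. It is therefore not read as agreement between the lines gene by gene. The 10 were the H4 genes HIST1H4B, H4C3, H4C8 and H4C11, the H3 genes H3C4, H3C12 and H3C13, the linker genes H1-1 and H1-5, and H2BC12. 28 of the 29 had a lower mean in hypoxia in both lines, as had 36.2% of all genes.

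The libraries labelled METTL4-si were compared with the Scr-si libraries at the same 1% O2. Both this comparison and the one above use the Scr-si hypoxia libraries, so their values are given side by side and no overlap between them is read. In FADU, 12 of 31 histone genes fell and 0 rose, where 16.8% of all genes fell and 15.2% rose, and the median log2 fold change was -0.30 (all genes 0.016). With the adjusted p, 8 fell, against 15.3% of all genes. At an unadjusted p under 0.05 alone, limma found 1 higher and 16 lower (21.2% and 24.2% of all genes), and edgeR called 12 falls (17.8% of all genes) and 0 rises. H4 genes fell in 3 of 5 (median -0.41), H2B genes in 4 of 9 (-0.40), H1 genes in 3 of 5 (-0.47) and H3 genes in 2 of 5 (-0.32). No H2A gene was called in 7 by limma (0 also by edgeR; 1 higher at an unadjusted p under 0.05), and the H2A median of 0.065 changed sign to -0.13 without METTL4-si replicate 1.

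H4C3 stood at 70.5 and 66.6 with METTL4-si against 108 and 116 with Scr-si (log2 fold change -0.70, SE 0.080, limma adjusted p = 0.0013), and H1-1 at 57.5 and 69.1 against 100.4 and 111 (-0.73). H1-5 stood at 179 and 156 against 222 and 243, and H1-2 at 184 and 149.8 against 214 and 251 (log2 fold changes -0.47 and -0.48). In these 4 genes the groups did not overlap, and every METTL4-si library was below every normoxia library too. H2BC26, which was not called in hypoxia, was at 13.6 and 11.3 against 22.6 and 22.8, the lowest log2 fold change of the comparison (-0.82, SE 0.11). H2AC11 was at 109 and 82.8 against 89.3 and 92.0 and H2BC12 at 103 and 68.7 against 93.1 and 99.1; their groups overlapped.

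The FADU result depended on which library was kept. Without METTL4-si replicate 1, the library with breast epithelial transcripts, the median log2 fold change was -0.53. Leaving out each library in turn gave medians from -0.53 to -0.18. In METTL4-si replicate 1 some genes stood above both hypoxia libraries. Among them were H2AC13 (68.7 against 45.7 and 48.0), H2AC20 (62.8 against 44.2 and 48.8), H2AC21 (49.3 against 26.4 and 30.3) and H3C13 (24.2 against 14.6 and 15.0). The summed value of the histone genes was 2025 and 1601 in METTL4-si replicates 1 and 2. The part of the other cells' RNA in these values was not tested.

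In BFTC909, 8 of 29 fell and 0 rose, where 12.9% of all genes fell and 15.7% rose, and the median was -0.18 (all genes 0.0099). The adjusted p gave the same count of 8, against 11.7%. At an unadjusted p under 0.05 alone, limma found 2 higher and 12 lower (21.8% and 21.9% of all genes), and edgeR called 8 falls (13.8% of all genes) and 0 rises. H4 genes fell in 3 of 5 (median -0.57), H3 genes in 2 of 5 (0.025), H2B genes in 2 of 8 (-0.22) and H1 genes in 1 of 5 (-0.16). No H2A gene was called in 6 by limma or edgeR (2 higher at an unadjusted p under 0.05), and the H2A median of 0.062 became -0.035 with median-centred libraries and -0.088 without METTL4-si replicate 2.

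H4C3 was at 95.5 and 99.3 against 160.3 and 160.3 (log2 fold change -0.71, SE 0.059, limma adjusted p = 0.00023), and H1-5 at 104 and 111 against 168 and 180.1 (log2 fold change -0.69). H3C12 was at 25.6 and 34.7 against 48.5 and 51.2 (-0.72), and H2BC5, one of the histone genes also known to give polyadenylated mRNA, at 114 and 120.4 against 176 and 173 (-0.57). Groups did not overlap in these 4 genes. H1-2 and H1-4, at 295 and 269 and 219 and 245, were not called (log2 fold changes -0.24 and -0.16). Without METTL4-si replicate 2, the library with epithelial transcripts, the median log2 fold change was -0.35. Leaving out each library in turn gave medians from -0.35 to -0.053. In METTL4-si replicate 2, H2AC20 stood at 90.9 against 63.0 and 64.6 in hypoxia, and H3C13 at 22.6 against 15.7 and 17.3.

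6 genes fell with METTL4-si in both lines: HIST1H4B, H4C3, H4C8, H3C4, H1-5 and H2BC5. They are 54.5% of the 11 that fell in FADU among the 29 tested in both, and 75% of the 8 in BFTC909, where over all genes 4.87% fell in both (27.2% of those that fell in FADU and 41.0% of those in BFTC909). 17 of the 29 had a lower mean in both lines, against 31.1% of all genes. In FADU the direction is that of libraries whose METTL4 RNA was not lower, as given above.

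**Figure D2:**
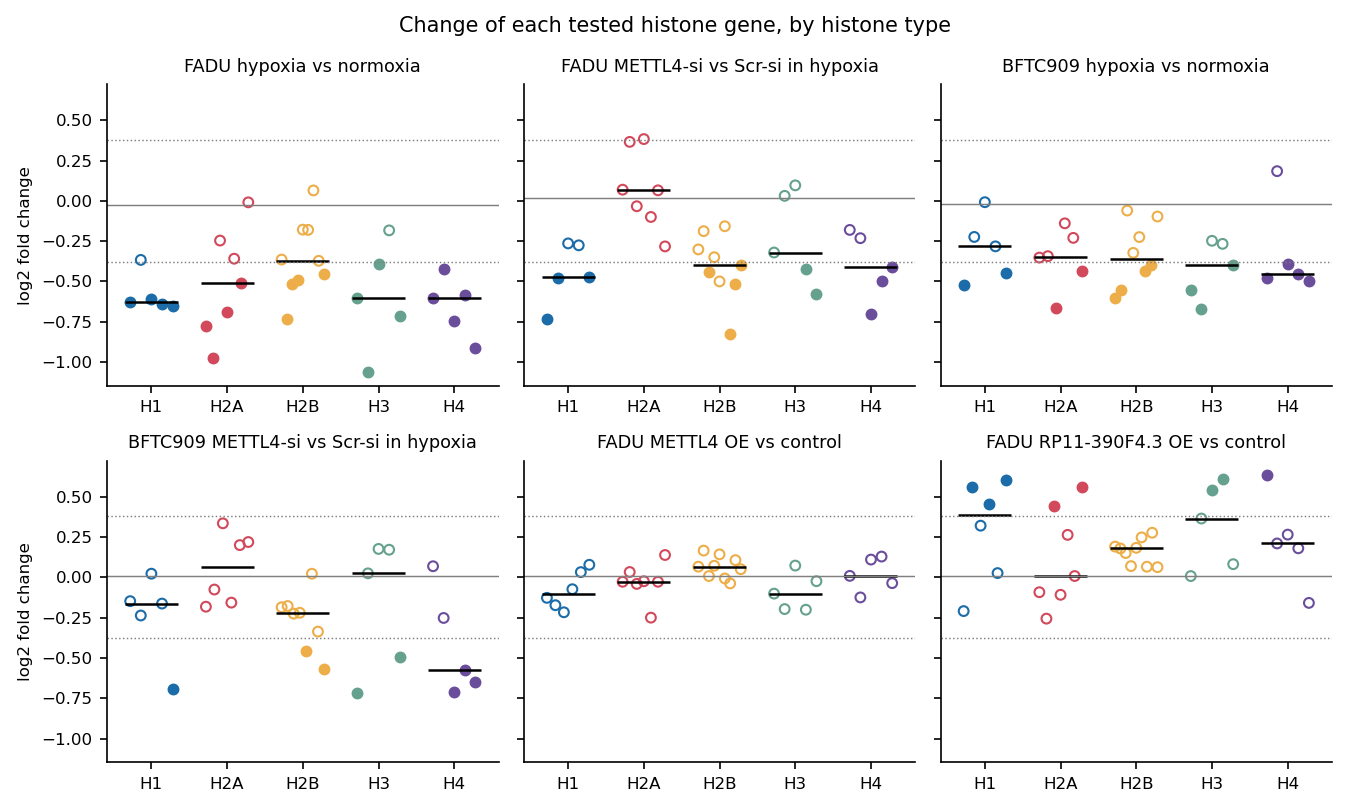
Log2 fold change of every tested histone gene in the 6 comparisons, coloured by type, with filled points for called genes. Short black lines are medians of a type, the grey line is the median of all tested genes, and dotted lines mark 1.3-fold. Points lie mostly below 0 in both hypoxia comparisons, with medians of -0.51 in FADU and -0.39 in BFTC909, and are centred near 0 with METTL4 OE.

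Summed over all histone genes, the value went from 3392 and 3297 in FADU normoxia to 2154 and 2349 in hypoxia and 2025 and 1601 with METTL4-si, or to 0.673 and 0.542 of the normoxia mean. In BFTC909 it went from 3431 and 3426 in normoxia to 2633 and 2744 in hypoxia and 2079 and 2334 with METTL4-si (0.784 and 0.644 of normoxia). H4 genes kept 0.610 of their FADU normoxia sum in hypoxia and 0.431 with METTL4-si, whereas H2A genes kept 0.638 and 0.705. In BFTC909 the same shares were 0.764 and 0.504 for H4, and 0.779 and 0.803 for H2A. By library, METTL4-si replicates 1 and 2 kept 0.807 and 0.602 of the H2A sum and 0.473 and 0.389 of the H4 sum in FADU, and 0.717 and 0.890 of the H2A sum and 0.493 and 0.515 of the H4 sum in BFTC909. The H2A share was thus above that of hypoxia only in the library of each line with other cells' transcripts, and below it in the other library, whereas H4 was below it in all 4. The difference between the types was not tested.

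The members known to give polyadenylated mRNA as well (H1-2, H2AC6, H2BC4, H2BC5, H2BC12 and H2BC21) were counted apart: 3 of 6 fell in FADU hypoxia against 18 of 25 others, and 3 of 6 against 12 of 23 in BFTC909. With METTL4-si, 3 of 6 against 9 of 25 fell in FADU and 1 of 6 against 7 of 23 in BFTC909. These shares were not tested.

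Other RNAs without a poly(A) tail, among them RNA polymerase III transcripts and small nuclear and nucleolar RNAs, were read beside the histone genes. In FADU hypoxia 7 of 8 fell (median log2 fold change -0.84), among them RN7SK, which holds a transcription elongation factor, from 18533 and 17845 to 11648 and 11941, and the telomerase RNA TERC, from 175 and 191 to 107 and 120.0. With METTL4-si in FADU 6 of 8 rose and 1 fell (median 0.68), with RN7SK at 21439 and 19426, while the histone genes were lower. In BFTC909 hypoxia 2 of 8 rose, with RN7SK at 7750.3 and 7373 and 10087 and 9995. With METTL4-si in BFTC909 RN7SK was at 9812 and 13594 (log2 fold change 0.20, not called), and the median of the 8 was 0.24. The fall of these RNAs moved with that of the histone genes in FADU hypoxia, not in BFTC909, and its part in the histone result was not tested.

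**Figure D3:**
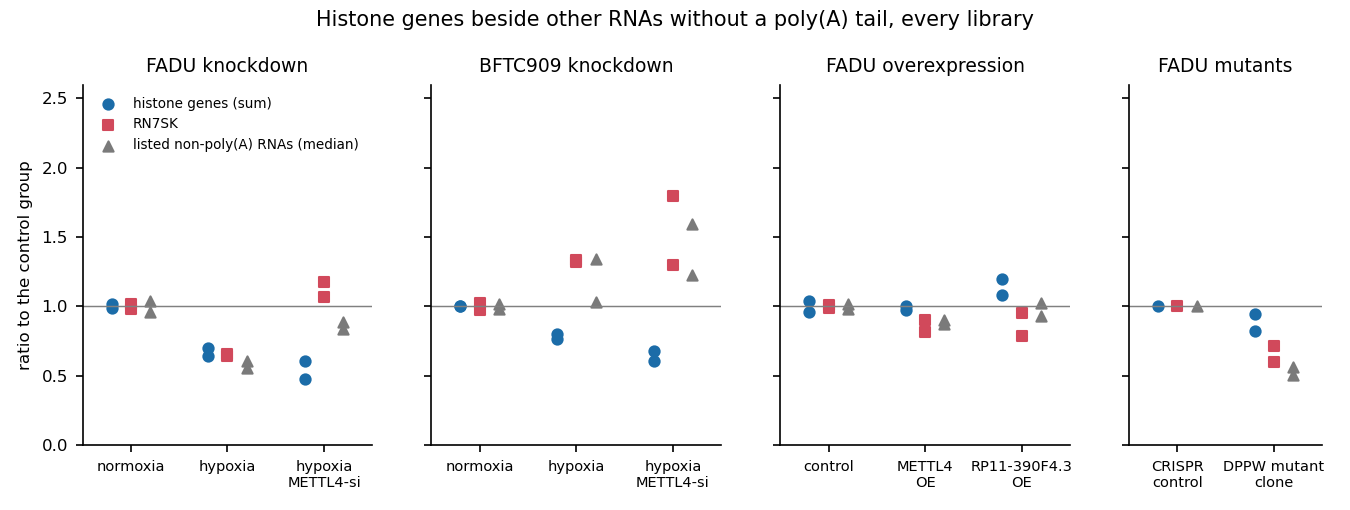
Ratio to the mean of the reference group in each library for the summed histone genes, for RN7SK and for the median of all listed RNAs without a poly(A) tail, RN7SK included. In FADU METTL4-si the histone sum is at 0.605 and 0.479 while RN7SK is at 1.18 and 1.07, and in BFTC909 hypoxia the histone sum is at 0.768 and 0.800 while RN7SK is at 1.33 and 1.32.

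METTL4 OE in normoxia moved no histone gene past the call. By limma 0 of 32 rose and 0 fell, where 8.3% of all 15644 genes rose and 11.1% fell. edgeR called 0 rises and 0 falls (8.61% and 13.1% of all genes), and at an unadjusted p under 0.05 alone limma found 1 higher and 4 lower (24.7% and 22.3%). Log2 fold changes ran from -0.25 to 0.17, with a median of -0.015 (all genes 0.0065). H1-5 was at 369 and 381 in the control and 379 and 388 with METTL4, and H4C3 at 147 and 189 and 167 and 195. H1-3 had one of the lower values, 219.7 and 241 against 253 and 284 (log2 fold change -0.22, SE 0.061). H2BC12 had the highest log2 fold change, with 169 and 158 against 144 and 146 (0.17). Hypoxia genes did move: CA9 went from 0.906 and 0.744 to 9.39 and 9.15.

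With RP11-390F4.3 OE, read against the same control libraries, the called histone genes rose. Its columns were assigned by elimination, since their header carries another name. 8 of 32 rose and 0 fell, where 16.8% of all genes rose and 12.8% fell, with a median log2 fold change of 0.19 (all genes 0.0091). The adjusted p also gave 8, against 16.5%. At an unadjusted p under 0.05 alone, limma found 20 higher and 2 lower (30.6% and 27.6% of all genes), and edgeR called 9 rises (17.4% of all genes) and 0 falls. H1 genes had the highest median, 0.39, with 3 of 6 called, then H3 (0.36, 2 of 5), H4 (0.21, 1 of 5), H2B (0.18, 0 of 9) and H2A (0.0083, 2 of 7). Without the RP11-390F4.3 OE libraries, H1-6, H3C14 and H3C15 would not have reached a value of 1 in 2 libraries. They entered the test through the group in which they are high. Their rises are part of the 8 and of the H1 and H3 counts and medians, and are no evidence of a rise.

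The rise was uneven among linker genes. H1-2 went from 304 and 351 to 469 and 494 (log2 fold change 0.56, SE 0.062, limma adjusted p = 6.2e-06), and H1-4 from 233 and 230.5 to 284 and 357 (log2 fold change 0.46). H1-5 stayed at 369 and 381 and 389 and 375, and H1-1 was at 176 and 176 and 157 and 148 (log2 fold changes 0.026 and -0.21, not called). The largest log2 fold changes belonged to genes at low values: H4C11 (5.92 and 5.49 to 8.13 and 10.9, 0.64), H3C15 (0.668 and 0.884 to 1.33 and 2.14, 0.61) and H1-6 (0.620 and 0.419 to 1.29 and 1.33, 0.61). H4C11 and H3C15 are among the genes with near-identical copies. The core genes H4C3 (147 and 189 to 184 and 219), H3C4 (68.3 and 73.7 to 67.8 and 83.3) and H2AC6 (127 and 134 to 126 and 136) were not called. H1-6 shares its strand and span with H2BC4, as given above. Without RP11-390F4.3 OE replicate 2, the library with raised breast epithelial genes, the median was 0.066 (the part of those markers in the result was not tested). With genes under a mean value of 5 left out 4 rose, and the share over all genes is not given here for that filter. The other called genes were thus at means under 5, so the count of 8 rests in part on genes at low values. With median-centred libraries 6 of 32 rose, where 2024 of 15644 genes rose.

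The mutant clones were compared in value only, because their control was 1 library, and the table holds only genes with at least 10 reads in every library. Of 28 histone genes 3 were lower by at least 1.3-fold in both clones and 0 were higher, where 11.7% of all genes were lower and 10.3% higher. The 3 lower genes, all linker genes, were thus no larger a share than that of all genes. H1-3 was at 133 in the CRISPR control, 81.4 in clone 1 and 82.0 in clone 2, H1-4 at 142 in the CRISPR control, 79.5 in clone 1 and 101 in clone 2 and H1-2 at 192 in the CRISPR control, 133 in clone 1 and 146 in clone 2. H1-5 was at 169 in the CRISPR control, 174 in clone 1 and 182 in clone 2, so the H1 genes did not move together. The median log2 ratio was -0.16 in clone 1 and 0.039 in clone 2, so the clones stood on different sides of 0. H4C3 was at 67.7 in the CRISPR control, 41.5 in clone 1 and 63.2 in clone 2, and all 5 H4 genes were lower in both clones, as were 39.5% of all genes, though in clone 2 HIST1H4B and H4C8 were lower by log2 ratios of only -0.010 and -0.027. H2BC12, at 64.3 in the CRISPR control, 75.8 in clone 1 and 80.4 in clone 2, and H3C4, at 24.3 in the CRISPR control, 21.8 in clone 1 and 31.6 in clone 2, were not past the fold. Other RNAs without a poly(A) tail were lower by 1.3-fold in both clones in 4 of 6 (median -0.82).

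Genes that make, cut and hold histone mRNA were listed by role, and counts are given against the percentages above. Of 8 genes for histone gene transcription, limma called NPAT, the coactivator of these clusters, in no comparison, with values of 87.4 and 92.2 in FADU normoxia and 96.9 and 93.4 in hypoxia. CCNE2, a cyclin E that drives S phase, fell with METTL4-si in both lines (log2 fold changes -0.66 and -0.53), in BFTC909 hypoxia (-0.54) and with RP11-390F4.3 OE (-0.54), and rose in FADU hypoxia (0.45) and with METTL4 OE (0.77). Of the 8 genes, 1 rose and 1 fell in FADU hypoxia, 3 fell in BFTC909 hypoxia, 2 rose with METTL4 OE and 3 fell with RP11-390F4.3 OE (CASP8AP2, CCNE1 and CCNE2), where 8 histone genes rose. Of 14 genes for 3′ end processing, translation and decay, 3 fell in FADU hypoxia, 6 in BFTC909 hypoxia, and 3 fell while 2 rose with METTL4-si in FADU. SLBP, which binds the stem-loop shown above, was at 61.4 and 64.0 in FADU normoxia, 68.5 and 63.8 in hypoxia and 37.0 and 39.5 with METTL4-si (log2 fold change -0.77 against hypoxia, SE 0.075). In BFTC909 it fell with hypoxia, from 54.3 and 54.2 to 35.5 and 37.3 (log2 fold change -0.56). LSM10, a protein of the U7 particle, fell in hypoxia in both lines (-0.70 and -0.96).

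Of 26 genes of S phase and replication, 3 fell in FADU hypoxia, 14 in BFTC909 hypoxia, 7 with METTL4-si in FADU, 6 with METTL4-si in BFTC909 and 12 with RP11-390F4.3 OE. Those that fell with RP11-390F4.3 OE included CDC6, a loading factor of the replicative helicase, and MCM5, a subunit of that helicase (log2 fold changes -0.62 and -0.45). These falls were in the libraries where 8 histone genes rose. With METTL4 OE 2 rose, and in the mutant clones 10 of 26 were higher by 1.3-fold in both.

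Replacement histones, most of which are made through the cell cycle from polyadenylated mRNA, were read as a comparison. In FADU hypoxia H2AX, the variant that marks DNA breaks and which also gives a stem-loop mRNA like those of the members, fell from 178 and 149.9 to 88.8 and 87.1. With METTL4-si in FADU the variants H2AZ1, H2AZ2, H3-3A and H3-3B fell. In BFTC909 hypoxia H2AZ1, H2AX and H3-3B fell and H1-10, a replacement linker histone, rose, whereas H2AZ2 and CENPA, the H3 variant of centromeres, fell with METTL4-si. With RP11-390F4.3 OE H1-10 rose from 39.8 and 42.2 to 92.0 and 98.6 and H3-3B from 377 and 405 to 574 and 569. So H1-10 was higher there beside the replication-dependent H1-2 and H1-4. In the mutant clones H2AZ1 was higher and H1-10 lower by 1.3-fold in both.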

How the data were processed

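Total RNA was depleted of ribosomal RNA and sequenced from stranded libraries. Per the labels, reads were trimmed with Trim Galore, aligned to hg19 with HISAT2, counted with HTSeq and normalized with edgeR by the authors; versions and the strand setting of the counting are not given in the sources used here. The deposited values are a signal, TMM-normalized CPM, in 4 tables normalized separately. Values were whole multiples of 1 read (100% within 0.02), so reads were recovered. Columns named MAHAC were taken as RP11-390F4.3 OE because no other columns were left for that group. Rows that name no gene (40.9 to 43.0% of the mutant columns) were left out, as were the authors' own fold changes and p-values.

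Genes that reached a value of 1 in 2 or more libraries entered the fit with limma 3.58.1 (trend) on log2(value + 1), the 3 groups of a table sharing the spread; such fold changes understate low genes. A call needed 1.3-fold and an unadjusted p under 0.05; adjusted p-values (Benjamini-Hochberg) are over all genes tested. The mutant table got no test. edgeR 4.0.16 on recovered reads, other scalings, filters and pseudocounts, a replicate block and leaving out each library were alternatives. Simulated data with 16212 genes were made from the mean values and library sizes of the FADU normoxia, hypoxia and METTL4-si libraries. Their spread was fixed in advance and not estimated from these libraries. On them limma found 81.8% of 1.5-fold and 92.8% of 2-fold changes, shares that hold for that spread only. Named genes were the 5 highest in each table, the 3 largest changes in each direction of each comparison and the highest of each type, with the pathway lists. Part of the replacement histone list is not reported here. Members and lists were chosen with earlier results of these data known. Stem-loops were read from GRCh37 with GENCODE 44. Figures were drawn with matplotlib 3.10.9.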

Additional observations from a re-analysis of the deposited data

Results flagged for a closer look

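H4C16, the H4 gene of chromosome 12 that stands alone outside the clusters, went in opposite directions in the lines. In FADU it was at 60.4 and 56.2 in normoxia and 42.0 and 44.3 in hypoxia (log2 fold change -0.42), and in BFTC909 at 44.6 and 44.9 and 49.2 and 52.8 (0.18). The BFTC909 change was under 1.3-fold and not called. The libraries of the 2 groups did not overlap in either line, and the share of all genes without overlap is not given here. The difference between the lines was not tested, because their tables were normalized separately.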

How the results depend on the processing

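With 2 libraries a group, the counts carry wide margins. Shares over all genes are not given for the counts with a library left out, which show only how far the calls moved. Leaving out each library in turn gave 14 to 21 falls (median log2 fold change -0.59 to -0.43) for FADU hypoxia and 11 to 15 (-0.40 to -0.35) for BFTC909 hypoxia. For METTL4-si it gave 3 to 22 falls and 0 to 4 rises in FADU (median -0.53 to -0.18), and 6 to 12 falls and 0 to 2 rises in BFTC909 (-0.35 to -0.053). For METTL4 OE the median ran from -0.065 to 0.032 with 0 calls, and RP11-390F4.3 OE had 5 to 11 rises and 0 to 1 falls (0.066 to 0.31). The mutant median of -0.15 was -0.16 with clone 1 alone and turned to 0.039 with clone 2 alone. Without the libraries that carried other cells' transcripts, the METTL4-si median was -0.53 in FADU and -0.35 in BFTC909. A pseudocount of 5 gave a median of -0.31 for BFTC909 hypoxia and 4 rises with RP11-390F4.3 OE, as did a minimum mean value of 5. Shares over all genes are not given for these 4 rises. Median-centred libraries gave 9 falls in BFTC909 hypoxia; over all genes they moved the rises and falls there from 2894 and 2854 to 3512 and 2241, with METTL4-si in BFTC909 from 2339 and 1922 to 1771 and 2751 and with RP11-390F4.3 OE from 2630 and 2007 to 2024 and 2918. The replicate block left 21 and 15 falls in FADU and BFTC909 hypoxia, 12 and 8 falls with METTL4-si in FADU and BFTC909, 0 calls with METTL4 OE and 8 rises with RP11-390F4.3 OE. The labels give only a number, and deviations of same-numbered libraries correlated at -0.065 to 0.15 except between FADU normoxia and FADU METTL4-si (0.65), whose replicate 1 libraries both hold the breast epithelial genes, so the numbers were not taken as a pairing. In all, 263 summary values stayed within their margins, 17 moved and 1 reversed; of values for single genes 224 kept their call, 11 lost it and 0 reversed. Genes near a value of 1 cannot show small changes at this depth.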

Other observations

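Histone chaperones, mitosis genes and cell cycle inhibitors were read in the same libraries. Counts are given against the percentages above, and several lie near or below them. An example is 2 of 15 chaperones in FADU hypoxia, where 12.5% of all genes fell. Of 15 chaperones, 2 fell in FADU hypoxia and 5 with METTL4-si, among them ASF1B, which hands H3 and H4 to new chromatin (log2 fold change -0.47); in BFTC909 6 of 14 fell and 1 rose in hypoxia, and 1 fell with METTL4-si. With RP11-390F4.3 OE 3 of 15 fell, among them NASP, a carrier of H3 and H4 (-0.42), and with METTL4 OE 1 rose. Mitosis genes fell in 5 of 10 in FADU hypoxia and 3 of 10 in BFTC909 hypoxia; with METTL4-si 1 fell in FADU and 8 in BFTC909, and the difference between lines was not tested. RP11-390F4.3 OE lowered 1 of 10 mitosis genes, and with METTL4 OE their median log2 fold change was 0.078. Cell cycle inhibitors rose in 7 of 9 with RP11-390F4.3 OE, among them CDKN1A, the p21 inhibitor, from 7.87 and 9.86 to 29.9 and 31.9, and with METTL4 OE 1 rose and 1 fell. In hypoxia 1 of 8 inhibitors rose in FADU and 2 of 7 in BFTC909, and with METTL4-si 4 fell in each line while 1 rose in BFTC909. In the mutant clones, by fold only, 2 of 14 chaperones and 6 of 10 mitosis genes were higher in both clones, and of 9 inhibitors 1 was higher and 3 were lower.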
